A study of Homo sapiens with 9 samples.

Results

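Type I interferon-stimulated genes were compared among 3 isogenic H3122 lines. The set held 49 genes, taken by symbol as the core genes that human cells switch on after interferon alpha or beta. Of these, 48 had at least 1 named probe, with 71 probes in all, and STAT2 had none. A gene was tested where a probe lay above array background on at least 3 of the 9 arrays, which left 46 of the 49 among 13769 genes tested in all. IFIT5 and TRIM22, each above background on 2 arrays at most, were not tested. Of the 46 tested genes, 33 were above background on all 9 arrays.

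H3122 is a human lung adenocarcinoma line with an EML4-ALK (E13;A20) fusion, whose kinase drives its growth. Parental cells respond to both ALK inhibitors of the study, PF1066 (crizotinib) and X-376. PF1066R cells (also H3122 CR) are resistant to PF1066 and X376R cells (also H3122 XR) to X-376. Each line gave 3 arrays, and all lines carry the fusion. Each resistant state is represented by 1 derived line, so that resistance and other differences between lines cannot be told apart. The sources used here do not say whether inhibitor was present when RNA was taken, or whether replicates were grown as separate cultures. The p-values therefore measure the spread between these arrays, which may be technical.

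Type I interferons bind the receptor pair IFNAR1 and IFNAR2, whose kinases JAK1 and TYK2 phosphorylate STAT2. A complex that holds STAT2 and IRF9 then binds interferon-stimulated response elements in the promoters of target genes. These encode RNA sensors, antiviral effectors, the ubiquitin-like ISG15 system and feedback regulators such as USP18. Many of them have a low basal level in epithelial cells without added interferon.

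The element can be seen in the promoters of genes on which the results below turn. A RefSeq promoter window (GRCh38.p14, 250 bases before to 50 after a start) was given for 40 of the 49 genes. The response element was searched on both strands as GAAA, any 2 bases, then GAAA. It was found in 27 of these 40 genes (67.5%), against 4.38% of the 27305 genes with a window. The stretches below lie directly before the start and read 5′ to 3′ on the gene's strand, with the matches in capitals. They are shown because IFI6, IFIT1 and ISG15 were higher in both resistant lines, IFI27 moved in opposite directions, and IFITM1 and IFITM3 were lower in X376R. The IFI6 stretch is chr1:27672193-27672362 on the minus strand, with 3 elements that begin 156, 115 and 93 bases before the start. The IFIT1 stretch is chr10:89392493-89392622 on the plus strand, with elements at 116 and 103 bases, both in reverse orientation. The ISG15 stretch is chr1:1013367-1013496 on the plus strand, where the elements at 113 and 107 bases overlap. The IFI27 stretch is chr14:94110606-94110735 on the plus strand, with a reversed element at 108 bases and a forward one at 95. The IFITM1 stretch is chr11:313980-314039 on the plus strand, with elements at 40 and 6 bases, the latter running past the start. The IFITM3 stretch is chr11:320861-320920 on the minus strand, with elements at 52 and 35 bases.
IFI6: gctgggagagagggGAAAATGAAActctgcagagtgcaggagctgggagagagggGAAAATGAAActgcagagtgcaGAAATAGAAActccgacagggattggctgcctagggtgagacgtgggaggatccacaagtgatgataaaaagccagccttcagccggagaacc
IFIT1: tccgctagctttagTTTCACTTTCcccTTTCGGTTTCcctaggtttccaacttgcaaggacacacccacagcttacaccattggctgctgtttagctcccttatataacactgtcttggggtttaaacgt
ISG15: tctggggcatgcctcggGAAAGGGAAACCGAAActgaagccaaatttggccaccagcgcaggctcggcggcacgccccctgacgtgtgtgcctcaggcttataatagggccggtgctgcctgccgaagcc
IFI27: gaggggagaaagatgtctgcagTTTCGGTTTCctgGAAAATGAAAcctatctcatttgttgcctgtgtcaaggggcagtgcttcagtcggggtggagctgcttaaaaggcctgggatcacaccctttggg
IFITM1: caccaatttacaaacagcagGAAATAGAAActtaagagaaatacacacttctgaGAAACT
IFITM3: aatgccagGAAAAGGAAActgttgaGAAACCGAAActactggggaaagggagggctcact

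The arrays had mean signals between 163 and 298, at 230 to 298 in Parental, 175 to 234 in PF1066R and 163 to 180 in X376R. The PF1066R range overlapped both others. The share of probes above background ranged from 35.9% to 65.7% over the arrays. The correlation of log2 values across genes was 0.980 to 0.989 within a line and 0.929 to 0.963 between lines. All 6 epithelial markers, EPCAM and keratins among them, were above background on every array, with array means of 10.03 to 10.60 on the log2 scale. By the test used below, CDH1 fell in PF1066R and X376R (log2 -0.41 and -0.87) and KRT18 fell in X376R (-0.52). MUC1 rose in both (1.77 and 0.67), and EPCAM, KRT8 and KRT19 passed in neither. Markers of leukocytes had array means of 6.23 to 6.42, and 2 of 7 with a probe, CD14 and CD68, were above background on all 9 arrays, while CD3E of T cells was on none. Those of plasmacytoid dendritic cells, which make much interferon in blood, had means of 5.82 to 6.08, with LILRA4 above background on no array and CLEC4C on 3. Fibroblast markers had means of 6.10 to 6.15 in Parental, 6.20 to 6.23 in PF1066R and 6.39 to 6.42 in X376R. In X376R, COL1A1 rose by 0.81 and LUM was at least 1.38-fold higher, while COL1A2 (-0.11), COL3A1 (0.20) and DCN (0.17) did not pass. Of the tested fibroblast markers, COL3A1 alone passed in PF1066R, at least 1.13-fold above Parental (adjusted p = 0.0387). LUM passed the filter only with the X376R arrays and COL3A1 only with the PF1066R arrays, so these 2 increases give no support. PDGFRB was above background on no array. Endothelial markers had means of 5.94 to 6.04, 6.39 to 6.59 and 6.76 to 6.85 in Parental, PF1066R and X376R. CDH5 was raised by 1.38 in PF1066R and 2.21 in X376R, while PECAM1 passed in neither (-0.02 and -0.06). VWF, above background on 2 arrays at most, was not tested. The part of these genes in the results below was not tested.

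Most interferon-stimulated genes were higher in PF1066R than in Parental cells. Of the 46 tested genes, 30 rose (65.2%) and 1 fell (2.17%), where 9.09% of all tested genes rose and 9.37% fell (limma, Benjamini-Hochberg adjusted p under 0.05). Their median log2 change was 0.50, against -0.01 over all genes, and the range was -0.49 to 2.16. The rise was at least 2-fold in 12 genes, where 0.675% of all genes rose as far, and in 0 genes was there such a fall, where 0.995% of all genes fell as far. The 3 PF1066R arrays lay above all 3 Parental arrays for 36 of the 46 genes, where the share over all genes was 16.5%. These counts include OAS2, which passed the filter through the PF1066R arrays alone and gives them no support. Median centring of each array, used instead of quantile normalization, left 15 of the 30 increases past the threshold, where 1.56% of all genes rose under that setting. The increases of ISG15, EIF2AK2, IRF9, UBE2L6, IRF1, IRF7, SP110, PARP12, USP18, DDX60, PLSCR1, IFIT2, MX2, IFIH1 and GBP2 no longer passed. Among the 33 genes above background on all arrays, 25 rose and 1 fell, against 14.0% and 13.3% of all such genes.

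**Figure D1:**
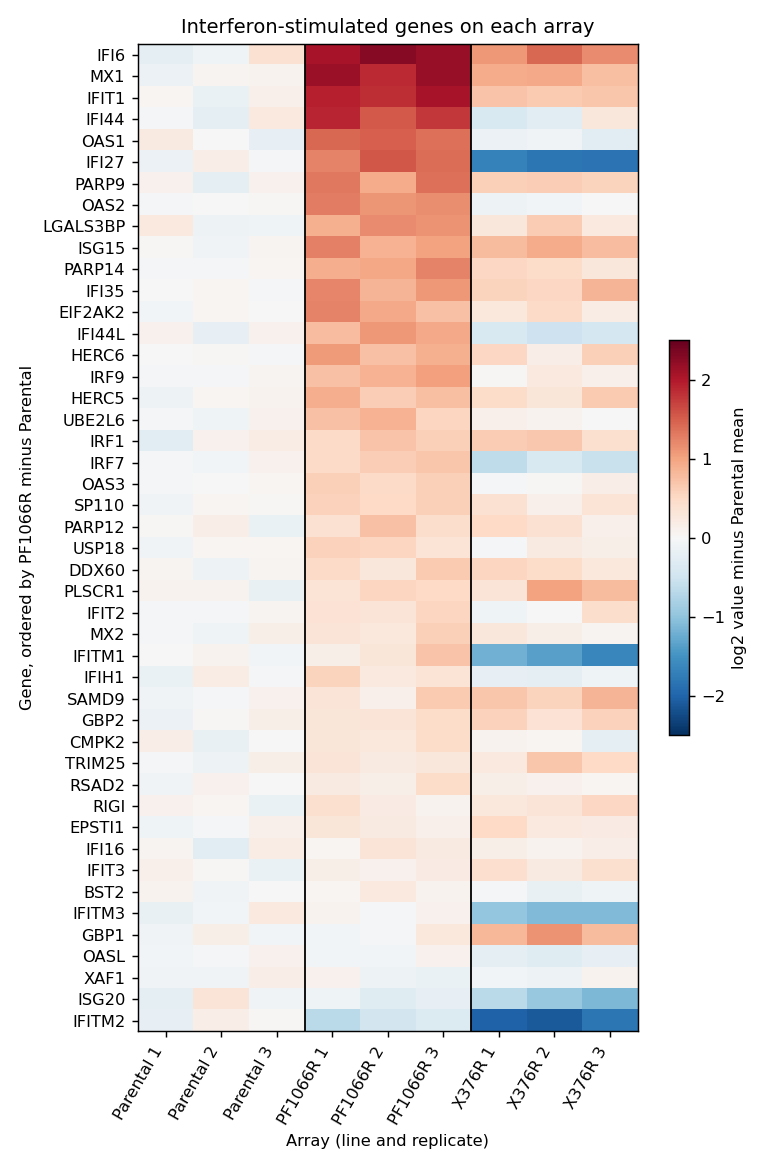
Each row is 1 of the 46 tested interferon-stimulated genes and each column 1 array, with colour giving the normalized log2 value minus the mean of the 3 Parental arrays. Rows are ordered by the PF1066R change, from IFI6 (2.16) to IFITM2 (-0.49), and the X376R columns show both raised and lowered genes.

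In X376R genes of the set were called in both directions. Against the same Parental arrays, 19 of 46 genes rose (41.3%) and 7 fell (15.2%), where 13.9% of all genes rose and 14.2% fell, so that the share that fell was close to that of all genes. The median log2 change was 0.23, and the range ran from -1.97 for IFITM2 to 1.23 for IFI6. IFI6 was the only gene of the set to rise at least 2-fold, where 1.71% of all genes did, while 4 genes fell as far, where 2.03% of all genes did. The arrays did not overlap for 22 genes that were higher and 8 that were lower, beside 18.7% and 20.1% of all genes. The increases depended on the scaling: with each array centred on its median, 1 gene rose (GBP1) and 10 fell, where 2.82% of all genes rose and 30.5% fell. That setting moved the median of all genes by -0.19, and the set's median relative to it was 0.12, against 0.24 under quantile normalization. With array brightness, which was lower in X376R than in Parental, as a covariate, 9 genes rose and 5 fell. Of all genes, 5.12% rose and 5.02% fell under that setting. The decreases of IRF7 and IFI44L no longer passed. Among the 33 genes above background on all arrays, 18 rose and 3 fell, against 20.7% and 19.0% of all such genes.

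Set directly against each other, X376R had 25 genes lower than PF1066R (54.3%) and 1 higher (2.17%), where 8.08% of all genes were lower and 7.92% higher. The median log2 difference was -0.39 for the set and -0.00 for all genes. By measured means, X376R was at least 2-fold lower in 11 genes, where 1.01% of all genes were, and in 0 genes at least 2-fold higher, where 0.951% were. Arrays of the pair did not overlap for 28 genes that were lower in X376R, where the share over all genes was 15.0%. OAS2 is again among the genes counted, and for the same reason gives these counts no support. With arrays centred on their medians, 20 were lower and 1 higher, where 5.11% of all genes were lower and 2% higher. Among the 33 genes above background on all arrays, 19 were lower and 1 higher, against 11.2% and 11.0% of all such genes.

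**Figure D2:**
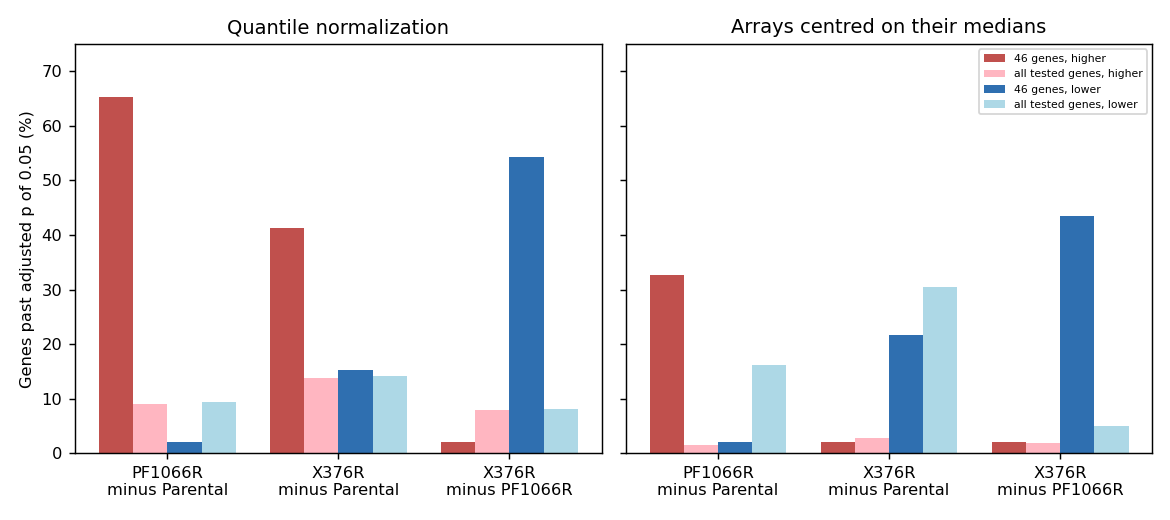
Bars give the percentage of the 46 interferon-stimulated genes, and of all 13769 tested genes, past an adjusted p of 0.05 in each direction and comparison, under quantile normalization (left) and median centring (right). The share of raised genes in PF1066R exceeds that of all genes in both panels, whereas in X376R it falls from 41.3% to the 1 gene left under median centring.

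The lines were ordered PF1066R, X376R, Parental from high to low in the means of 23 genes, and PF1066R, Parental, X376R in 11. X376R had the highest mean in 8 genes and Parental in 4. Relative to the shared Parental arrays, 14 genes rose in both resistant lines, where 5.48% of all genes did, and 13 rose in PF1066R without passing in X376R (3.30% of all genes). A group of 3 genes, IRF7, IFI27 and IFI44L, rose in PF1066R and fell in X376R, a pattern of 0.312% of all genes. IFITM2 fell in both, as 6.45% of all genes did. RIGI, TRIM25, IFIT3, GBP1 and SAMD9 rose in X376R without passing in PF1066R, and IFITM1, IFITM3 and ISG20 fell in X376R without passing in PF1066R. The remaining 7 genes passed in neither comparison with Parental cells. Of the 83 calls in the 3 comparisons, 17 were lost when at least 1 of the 9 arrays was left out. They were the PF1066R changes of DDX60, GBP2, IFIH1, IFIT2, IFITM2, MX2, PARP12 and PLSCR1, the X376R changes of DDX60, HERC6, IFIT3, LGALS3BP and RIGI, and the differences between the resistant lines of CMPK2, HERC6, IFI35 and USP18.

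**Figure D3:**
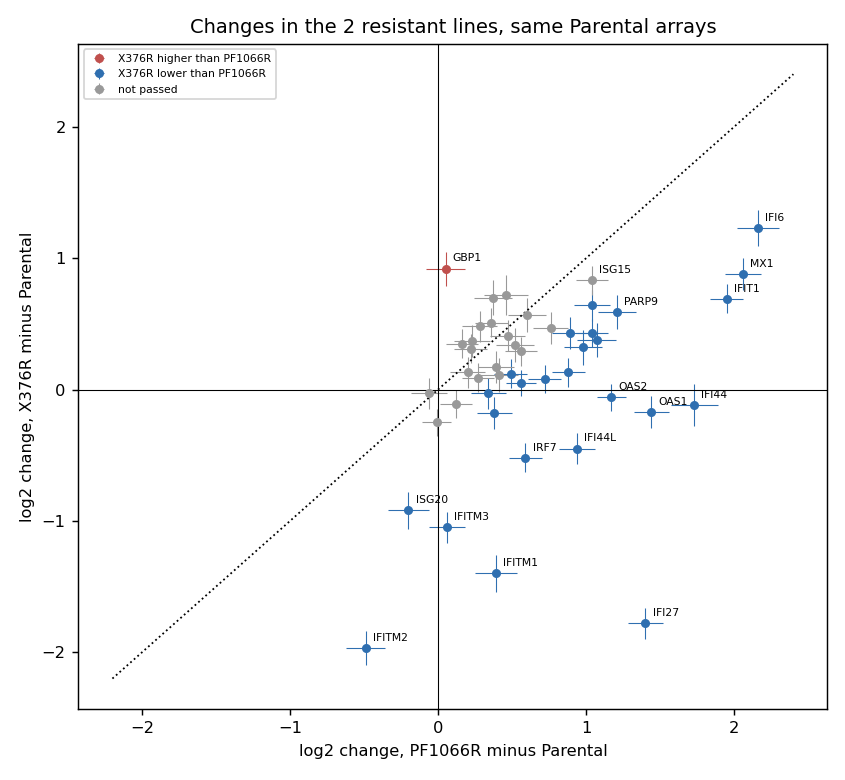
Each point is 1 of the 46 genes, with its log2 change from Parental in PF1066R (horizontal) and X376R (vertical), bars showing standard errors and colour the direct test of X376R against PF1066R. Both axes use the same Parental arrays, so the points' errors are linked; 25 genes are lower in X376R than in PF1066R and GBP1 alone is higher.

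The gene groups below are small. Their counts stand beside 9.09% of all genes that rose in PF1066R and 13.9% that rose in X376R. In X376R against PF1066R, 8.08% of all genes were lower. Among the transcription factors of the response, all 3 tested members rose in PF1066R, and they parted in X376R. IRF9, the DNA-binding partner of STAT2, read 9.50, 9.50 and 9.59 (normalized log2) on the Parental arrays, 10.26, 10.40 and 10.56 on the PF1066R arrays and 9.56, 9.77 and 9.66 on the X376R arrays. PF1066R stood above both other lines, whose arrays overlapped. IRF9 rose by 0.88 ± 0.11 (log2 change ± SE, adjusted p = 2.66e-05) in PF1066R, 1.83-fold, and by 0.53 with arrays centred on their medians (adjusted p = 0.0516), which did not pass. In X376R the difference from Parental was 0.13 (adjusted p = 0.426, 95% interval -0.10 to 0.37), and this value turned to -0.53 under that setting. X376R was 1.67-fold lower than PF1066R (log2 -0.74, adjusted p = 0.000126). IRF7, which drives interferon alpha genes and amplifies the response, read 8.06, 8.01 and 8.18 in Parental, 8.55, 8.70 and 8.77 in PF1066R and 7.44, 7.70 and 7.53 in X376R. The 3 lines did not overlap. IRF7 rose 1.51-fold in PF1066R (log2 0.59 ± 0.11, adjusted p = 0.00104) and fell 1.44-fold in X376R (log2 -0.52 ± 0.11, adjusted p = 0.00158). The direct difference was -1.12 ± 0.11 (adjusted p = 1.31e-06), and the other IRF7 probe, with log2 changes of 0.75, -0.36 and -1.12 in the same 3 comparisons, passed in each. IRF1, a factor induced by both interferon classes, rose by 0.60 in PF1066R and by 0.57 in X376R.

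Of the 4 sensors of foreign RNA and DNA, 2 rose in PF1066R and 2 in X376R. IFIH1 (MDA5), a sensor of long double-stranded RNA, rose in PF1066R (log2 0.38) and was lower in X376R than in PF1066R (-0.56). DDX60, a helicase that assists RNA sensing, rose in both resistant lines (0.47 and 0.41). RIGI, a sensor of viral RNA, rose in X376R (0.37, adjusted p = 0.0269) and had a change of 0.23 in PF1066R that did not pass. IFI16, a DNA sensor, passed in no comparison.

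In the ISG15 system, 5 of 6 genes rose in PF1066R and 4 of 6 in X376R. None of these X376R increases (ISG15, HERC5, HERC6 and TRIM25) passed with arrays centred on their medians. ISG15, the ubiquitin-like modifier itself, read 9.60, 9.50 and 9.64 in Parental, 10.84, 10.45 and 10.58 in PF1066R and 10.38, 10.50 and 10.35 in X376R. Both resistant lines stood above Parental on every array and overlapped each other. ISG15 rose 2.06-fold in PF1066R (log2 1.04 ± 0.11, adjusted p = 6.62e-06) and 1.78-fold in X376R (log2 0.83 ± 0.11, adjusted p = 3.11e-05). With arrays centred on their medians the PF1066R change was 0.69 (adjusted p = 0.0524) and the X376R change 0.17, and neither passed. The difference between the resistant lines was -0.21 (adjusted p = 0.26, 95% interval -0.45 to 0.03). USP18, which removes ISG15 from proteins and restrains the interferon receptor, read 6.63, 6.77 and 6.76 in Parental, 7.29, 7.26 and 7.07 in PF1066R and 6.70, 6.95 and 6.86 in X376R. PF1066R was again apart from the other lines. USP18 rose 1.4-fold in PF1066R (log2 0.49 ± 0.11, adjusted p = 0.00464), while the X376R change was 0.12 (adjusted p = 0.496, 95% interval -0.11 to 0.35), and X376R was lower than PF1066R by -0.37 (log2, adjusted p = 0.029). UBE2L6, the ISG15-conjugating enzyme, rose in PF1066R (0.72), with a change of 0.08 in X376R that did not pass. The other UBE2L6 probe gave 0.46 in PF1066R (adjusted p = 0.117) and did not pass. The ligase HERC5 rose by 0.76 in PF1066R and 0.47 in X376R, and its neighbour HERC6 by 0.89 and 0.43. TRIM25, a ubiquitin ligase that acts on RIGI, rose in X376R (0.48), a value that became -0.07 under median centring.

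The IFIT proteins bind foreign RNA and block its translation. IFIT1 read 6.35, 6.14 and 6.44 in Parental, 8.25, 8.15 and 8.38 in PF1066R and 7.03, 6.96 and 7.01 in X376R. X376R lay between the other lines, and no arrays overlapped. IFIT1 rose 3.86-fold in PF1066R (log2 1.95 ± 0.11, adjusted p = 3.59e-09) and 1.62-fold in X376R (log2 0.69 ± 0.11, adjusted p = 0.000139), and X376R was 2.39-fold below PF1066R (log2 -1.26, adjusted p = 3.28e-07). Under median centring the X376R change was 0.45 and did not pass. IFIT2 rose in PF1066R (0.41) and IFIT3 in X376R (0.35). For IFIT3 in PF1066R the probe used gave 0.16 and did not pass, whereas another of its probes gave 0.62 and passed. In X376R that other probe gave 0.38 and passed. The remaining IFIT3 probe, above background on all 9 arrays, gave 0.16 in PF1066R and 0.23 in X376R and passed in neither.

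Of the 4 OAS genes, of which OAS1, OAS3 and OAS2 are neighbours, 3 rose in PF1066R and 0 passed against Parental in X376R, while 3 were lower in X376R than in PF1066R. OAS enzymes make short oligoadenylates that switch on the ribonuclease RNase L. OAS1 read 7.09, 6.86 and 6.67 in Parental, 8.31, 8.37 and 8.25 in PF1066R and 6.73, 6.78 and 6.60 in X376R. PF1066R stood clear of the other lines, which overlapped. OAS1 rose 2.71-fold in PF1066R (log2 1.44 ± 0.12, adjusted p = 2.26e-07). The X376R change was -0.17 (adjusted p = 0.327, 95% interval -0.42 to 0.08), and X376R was 3.05-fold below PF1066R (log2 -1.61 ± 0.12, adjusted p = 3.06e-08). Its other probes rose too in PF1066R, by 0.91 and 1.15. OAS2 was not above background on any Parental or X376R array and read 7.20, 7.03 and 7.09 in PF1066R, which was at least 2.05-fold higher than Parental and at least 1.94-fold higher than X376R. Since OAS2 passed the filter through the PF1066R arrays alone, it had to differ. Its place among the genes that rose in PF1066R, or were lower in X376R than in PF1066R, is no support for those counts. OAS3 rose in PF1066R (0.56). OASL, the family member without enzyme activity, had a change of -0.01 in PF1066R and -0.25 in X376R, and neither passed.

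Among the GTPases, MX1, which traps viral nucleocapsids, read 7.50, 7.70 and 7.73 in Parental, 9.79, 9.50 and 9.81 in PF1066R and 8.56, 8.59 and 8.40 in X376R. As for IFIT1, X376R lay between the other lines without overlap. MX1 rose 4.17-fold in PF1066R (log2 2.06 ± 0.12, adjusted p = 3.59e-09) and 1.84-fold in X376R (log2 0.88 ± 0.12, adjusted p = 2.17e-05), and X376R was 2.27-fold below PF1066R. Its X376R change under median centring was 0.32 and did not pass. MX2, its neighbour, rose in PF1066R by 0.39. GBP1, a guanylate-binding protein induced by interferon gamma as well, was the one gene higher in X376R than in PF1066R. It read 6.14, 6.36 and 6.16 in Parental, 6.15, 6.18 and 6.49 in PF1066R and 7.05, 7.35 and 7.02 in X376R. The X376R arrays stood above all others, and the fold was 1.89 against Parental and 1.83 against PF1066R (adjusted p = 2.77e-05 and 9.96e-05). The other GBP1 probe passed in no comparison. The neighbouring GBP2 rose by 0.36 in PF1066R and 0.51 in X376R.

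The IFITM genes went the other way in X376R. IFITM proteins sit in cell membranes and block the fusion of viruses. The 3 genes are neighbours of related sequence, and probe sequences were not examined, so that which of them a probe reads is uncertain. IFITM1 read 7.54, 7.61 and 7.46 in Parental, 7.68, 7.84 and 8.25 in PF1066R and 6.33, 6.17 and 5.89 in X376R, where 1 of 3 arrays was above background. It fell 2.65-fold in X376R (log2 -1.40 ± 0.14, adjusted p = 1.14e-06), lay 3.46-fold below PF1066R (adjusted p = 9.19e-08), and its change in PF1066R was 0.39 (adjusted p = 0.0714). IFITM2 read 8.21, 8.58 and 8.43 in Parental, 7.73, 7.95 and 8.07 in PF1066R and 6.39, 6.31 and 6.60 in X376R. The 3 lines did not overlap. IFITM2 fell 1.4-fold in PF1066R (log2 -0.49 ± 0.13, adjusted p = 0.0119) and 3.92-fold in X376R (log2 -1.97 ± 0.13, adjusted p = 4.07e-09), with X376R 2.79-fold below PF1066R. The PF1066R decrease was -0.40 without Parental replicate 2 and -0.39 without PF1066R replicate 1 (adjusted p = 0.0617 and 0.0722), and so no longer passed. IFITM3 read 7.00, 7.13 and 7.43 in Parental, 7.28, 7.17 and 7.30 in PF1066R and 6.23, 6.08 and 6.09 in X376R, where 1 of 3 arrays was above background. Parental and PF1066R overlapped, and X376R lay below both. IFITM3 fell 2.07-fold in X376R (log2 -1.05 ± 0.12, adjusted p = 3.44e-06) and was 2.17-fold below PF1066R, and its change in PF1066R was 0.06 (adjusted p = 0.799). BST2 (tetherin), which holds budding virions at the surface, passed in no comparison.

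Of 7 other antiviral effectors tested, 3 rose in PF1066R. EIF2AK2 (PKR), the kinase that halts translation on double-stranded RNA, rose by 0.98, SP110 by 0.56 and the scramblase PLSCR1 by 0.46. The other SP110 probes gave 0.50 and 0.42 in PF1066R, which passed, and 0.20, which did not. In X376R, PLSCR1 (0.72) and SAMD9 (0.70), a factor that restricts poxviruses, rose. The exonuclease ISG20 fell by 0.92 in X376R (adjusted p = 0.000111) and lay below PF1066R as well, with a change of -0.20 in PF1066R that did not pass. RSAD2 (viperin), which makes a chain-terminating nucleotide, and its neighbour CMPK2 had changes of 0.27 and 0.34 in PF1066R that did not pass. All 3 ADP-ribosyltransferases rose in PF1066R, PARP9 by 1.21, PARP14 by 1.04 and PARP12 by 0.52. PARP9 and PARP14 rose in X376R by 0.59 and 0.43 and were lower there than in PF1066R (-0.62 and -0.61), and the X376R value of PARP14 became -0.14 under median centring. The other PARP9 probe gave 0.86 in PF1066R, which passed, and 0.31 in X376R, which did not.

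Among the remaining induced genes, 6 of 8 rose in PF1066R. IFI6, a mitochondrial protein that restrains apoptosis, had the largest increase of the set in both resistant lines. It read 8.93, 9.07 and 9.56 in Parental, 11.24, 11.45 and 11.35 in PF1066R and 10.27, 10.61 and 10.37 in X376R. The lines did not overlap. IFI6 rose 4.47-fold in PF1066R (log2 2.16 ± 0.14, adjusted p = 2.13e-08) and 2.35-fold in X376R (log2 1.23 ± 0.14, adjusted p = 5.89e-06), and X376R was 1.9-fold below PF1066R. Its other probe gave 2.69 and 1.77. Under median centring the X376R change was 0.57 (adjusted p = 0.0873).

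IFI27, among the genes most induced by interferon in epithelial cells, showed the widest gap between the resistant lines. It read 7.90, 8.21 and 8.00 in Parental, 9.28, 9.59 and 9.44 in PF1066R and 6.35, 6.23 and 6.19 in X376R, where 2 of 3 arrays were above background. PF1066R was high, X376R low and Parental between them, with no overlap. IFI27 rose 2.64-fold in PF1066R (log2 1.40 ± 0.12, adjusted p = 2.86e-07) and fell 3.43-fold in X376R (log2 -1.78 ± 0.12, adjusted p = 4.77e-09), a direct difference of -3.18 ± 0.12 or 9.06-fold (adjusted p = 4.88e-12).

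IFI44 and its neighbour IFI44L also rose in PF1066R. IFI44 read 6.96, 6.75 and 7.22 in Parental, 8.88, 8.51 and 8.74 in PF1066R and 6.59, 6.72 and 7.26 in X376R. PF1066R was above the other lines, which overlapped. IFI44 rose 3.32-fold in PF1066R (log2 1.73 ± 0.16, adjusted p = 1.08e-06). The X376R change was -0.12 (adjusted p = 0.669, 95% interval -0.46 to 0.22), and X376R was 3.61-fold below PF1066R (adjusted p = 3.05e-07). IFI44L read 6.55, 6.23 and 6.54 in Parental, 7.22, 7.53 and 7.38 in PF1066R and 6.05, 5.92 and 6.01 in X376R on the probe used, which was above background on none of the X376R arrays. On this probe it rose 1.91-fold in PF1066R (log2 0.94 ± 0.12, adjusted p = 2.89e-05), and X376R was at least 1.22-fold lower than Parental (adjusted p = 0.00807) and at least 2.34-fold lower than PF1066R (adjusted p = 2.12e-07). The other IFI44L probe, above background on 8 of the 9 arrays, passed in no comparison, with 0.16, -0.08 and -0.24. LGALS3BP, a secreted glycoprotein, rose by 1.07 in PF1066R and by 0.38 in X376R, the latter turning to -0.26 under median centring. IFI35 rose by 1.04 and 0.64. XAF1, a promoter of apoptosis, and EPSTI1 passed in no comparison.

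**Figure D4:**
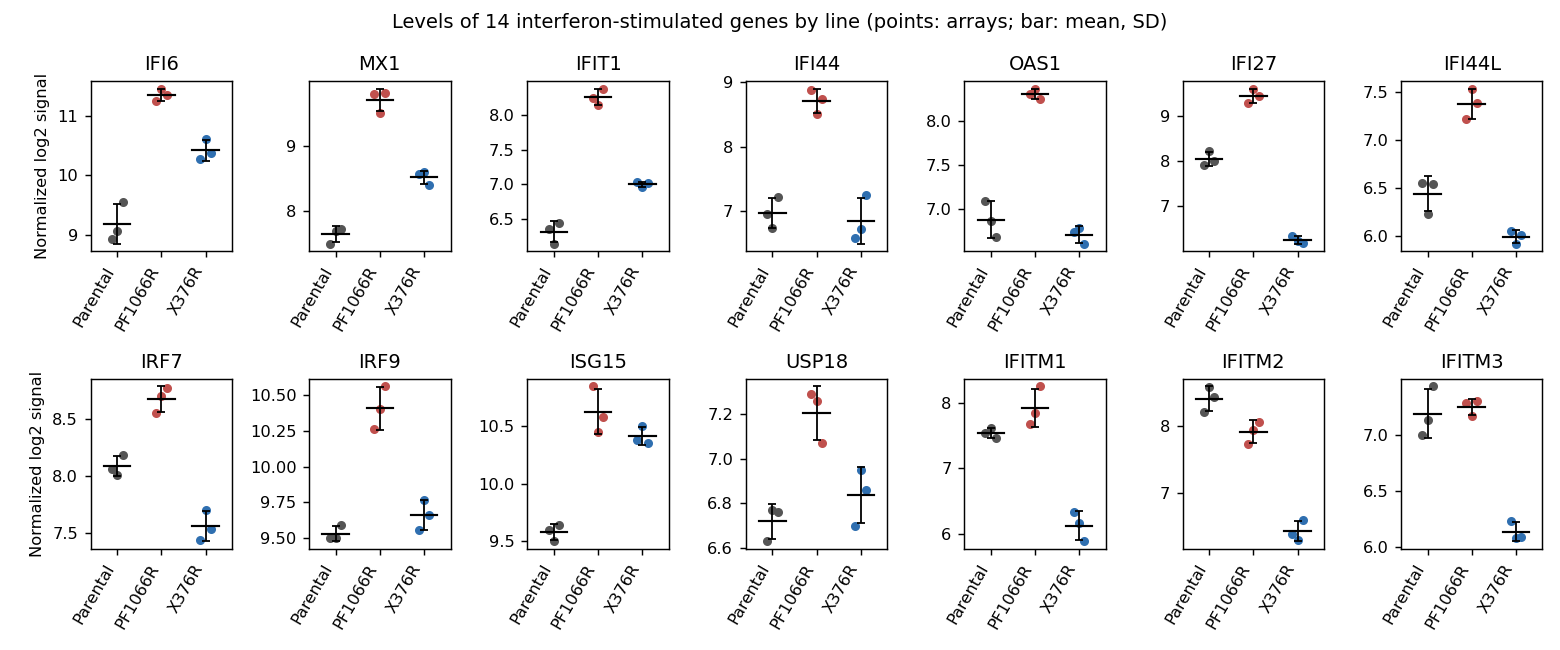
Points are the normalized log2 signals of 14 interferon-stimulated genes on each array, with the line mean and SD (n = 3). PF1066R has the highest mean in the panels from IFI6 to USP18, although its arrays overlap those of X376R for ISG15. X376R lies below all other arrays for IFI27, IFI44L, IRF7 and the 3 IFITM genes.

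The presence of the response element was set beside these changes as a description. Of the 26 tested genes with the element, 17 rose in PF1066R, with a median change of 0.54. Of 12 without it in their window 7 rose, with a median of 0.58, where 9.09% of all genes rose. In X376R, 13 of the 26 rose and 5 fell, and 5 of the 12 rose and 0 fell, beside 13.9% and 14.2% of all genes. The difference between genes with and without the element was not tested. The gamma-activated site, TTCNNNGAA on both strands, was found in 13 of 40 genes (32.5%), against 9.38% of all genes, and in 6 windows it overlapped a response element.

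Of 7 interferon ligands, 1 was tested, IFNE, and it passed in no comparison. IFNB1 and the interferon lambda genes IFNL1, IFNL2 and IFNL3 were above background on no array, and IFNA1 on 2. Among 6 receptor genes, IFNAR1 rose in both resistant lines (0.47 and 0.90), and IFNAR2 had changes of 0.30 (adjusted p = 0.0568) and 0.00. IFNGR1 and IFNGR2, the receptor chains for interferon gamma, fell in both, IFNGR1 by 0.45 in PF1066R and 3.27-fold in X376R (log2 -1.71 ± 0.13, adjusted p = 3.88e-08), and IFNGR2 by 0.65 and 0.71. JAK1 fell in both lines (-0.42 and -0.62), STAT3 rose in both (0.61 and 0.68), and TYK2 passed in neither. The PF1066R and Parental arrays overlapped for IFNGR1 and JAK1 (adjusted p = 0.0242 and 0.0432). Of all genes, 9.09% rose and 9.37% fell in PF1066R, while 13.9% rose and 14.2% fell in X376R. JAK2 was above background on no array.

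Of 8 tested genes of nucleic acid sensing, 3 rose in PF1066R, namely STING1 (0.43), the kinase TBK1 (0.40) and DHX58 (0.36), and none passed in X376R. The DHX58 probe was above background on all 3 PF1066R arrays but on 1 array of each other line. DHX58 thus passed the filter only with the PF1066R arrays and gives this count no support. Of all genes, 9.09% rose in PF1066R, while 13.9% rose and 14.2% fell in X376R. With 8 genes these counts cannot tell the lines apart. The PF1066R and Parental arrays overlapped for STING1 and TBK1 (adjusted p = 0.0402 and 0.0479). STING1 and TBK1 were lower in X376R than in PF1066R (-0.57 and -0.53). IRF3, the factor that TBK1 activates, had changes of -0.04 and -0.26 that did not pass. Of 6 tested inhibitors, the phosphatase gene PTPN6 alone rose, in both lines (0.54 and 0.91), and SOCS1 had changes of 0.02 and 0.09 that did not pass.

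Another 23 tested interferon-stimulated genes outside the set gave 8 increases and 1 decrease in PF1066R, with a median of 0.21, and 3 increases and 2 decreases in X376R, with a median of 0.19. In PF1066R, 9.09% of all genes rose and 9.37% fell. In X376R the counts of this list were no higher in share than the 13.9% and 14.2% of all genes that rose and fell. TNFSF10, the death ligand TRAIL, rose by 1.31 in PF1066R and was lower in X376R than in PF1066R by -1.55, while the RNA editing enzyme ADAR rose in both lines (0.52 and 0.64). Of 9 tested genes induced mainly by interferon gamma, 3 rose in PF1066R, where 9.09% of all genes did. They were HLA-DMA (0.67) and CD74 (0.49) of antigen presentation and the chemokine CCL2 (0.45). CCL2 alone rose in X376R (1.03), a share of the 9 genes no higher than the 13.9% of all genes. CXCL9, CXCL10 and GBP5 were above background on no array.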

How the data were processed

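Total RNA of 9 samples, 3 per line, was measured on Illumina bead arrays. Extraction used Trizol, an RNeasy kit and DNase I, per the labels' protocols. The deposited signal table holds linear intensity values that the authors had not normalized between arrays, as the differing array means show. The other deposited table gives log2 values already normalized by the authors, and the submitters' processing notes name R 2.15. In its replicate 1 columns 11.9% to 12.2% of values followed the distribution shared by the others, against 96.8% to 100%, and it served as an alternative alone. No source used here names the scanner software or how beads were summarized.

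The intensities were background-corrected (normexp, offset 50), quantile-normalized and put on the log2 scale with limma 3.58.1 in R 4.3.3. The table gives no detection p. Background on an array was therefore set at the highest signal among 92 features presumed, from their IDs, to be external controls, and a probe was kept if it passed this level on 3 arrays or more. Of 47322 probes with a value, 30112 had 1 symbol in the platform annotation, and the probe with the highest mean stood for its gene. For 10 genes of the set several probes passed. One fit over 9 arrays gave 3 contrasts, with Benjamini-Hochberg adjustment over 13769 genes, a threshold of 0.05, a median standard error of 0.118, and 6 residual and 10.7 prior degrees of freedom. The number of arrays limits the precision. The procedure was tested on simulated data. Folds written "at least" set the bright line's mean against, per array, the higher of the lowest signal above background and the dim probe's own.

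Full values are given for the 5 genes with the largest changes in each comparison, those that passed in opposite directions, and IRF9, ISG15 and USP18. GBP1 and OAS2 were added after their values were seen. Other lists name up to 4 genes per comparison. The members and lists were chosen with earlier results of these data known. Replicate numbers were not used as pairs. Alternatives changed the background correction, scaling, filter, choice of probe, source table, covariate, block and arrays included.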

Additional observations from a re-analysis of the deposited data

Results flagged for a closer look

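IRF7, IFI27 and IFI44L passed the test in opposite directions in the resistant lines against the same Parental arrays, and the direct test of X376R against PF1066R passed for each. The log2 difference was -1.12 for IRF7, -3.18 for IFI27 and -1.38 for IFI44L. IFI27 kept both of its opposite calls under each alternative in which it was tested, which leaves out the filter on all 9 arrays. The IRF7 increase in PF1066R was lost with arrays centred on their medians, and its decrease in X376R with array brightness as a covariate. The IFI44L decrease in X376R was lost with cyclic loess, the mean of passing probes, the brightness covariate and the authors' log2 table without the replicate 1 arrays. On the IFI44L probe used the X376R arrays gave only a bound, and the gene's other probe, above background on 8 of the 9 arrays, gave -0.08 in X376R against Parental and did not pass.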

How the results depend on the processing

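Of 83 calls in the set over the 3 comparisons, 40 held under each alternative in which their gene was tested (the filter on all 9 arrays covered 67 of the 83): 15 in PF1066R, 6 in X376R and 19 between the resistant lines. The 6 in X376R were the increase of GBP1 and the decreases of IFI27, IFITM1, IFITM2, IFITM3 and ISG20. Median centring had the largest effect, keeping 45 calls. Increases came to 15 in PF1066R and 1 in X376R, and decreases to 10 in X376R, with IRF9, IFIH1 and OAS1 added. Among X376R changes that passed under quantile normalization or median centring, the sign turned for IRF9 (-0.53), LGALS3BP (-0.26), PARP14 (-0.14) and TRIM25 (-0.07). Some changes that passed under neither turned as well, such as UBE2L6 (0.08 to -0.50) and EIF2AK2 (0.32 to -0.29). Over all genes it gave 215 increases and 2224 decreases in PF1066R, against 1251 and 1290, and 388 and 4199 in X376R, against 1910 and 1950. For X376R minus PF1066R it gave 275 and 703, against 1091 and 1113. Medians of all genes shifted by -0.12, -0.19 and -0.06, and the set's medians relative to these were 0.40, 0.12 and -0.46. The cause was not tested. With array brightness as a covariate, X376R increases came to 9 (all genes 705 higher and 691 lower) and PF1066R increases to 24 (629 and 625). The authors' log2 table without the replicate 1 arrays, chosen after seeing the data, gave 12 increases in X376R and 0 decreases in PF1066R. Of all genes, 9.26% rose in X376R and 5.37% fell in PF1066R under that setting. It also gave 23 increases in PF1066R (4.5% of all genes) and 6 decreases in X376R (9.15%). Between the resistant lines it gave 18 decreases (4.58%). With genes above background on all 9 arrays, and so fewer genes tested, 3 decreases in X376R were called. The authors' log2 table with all arrays gave 2 increases of X376R over PF1066R, where 9.29% of all genes were higher.

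Leaving out 1 array at a time kept 74 to 79 of the 83 calls. It gave 24 to 32 increases and 0 to 1 decreases in PF1066R, 15 to 19 increases and 7 decreases in X376R, and 1 to 2 increases and 21 to 26 decreases between the resistant lines. The single decrease in PF1066R was lost without Parental replicate 2 or PF1066R replicate 1, and a further X376R increase over PF1066R came without PF1066R replicate 3 or X376R replicate 1. A replicate block kept all 83 calls and gave 2 increases between the resistant lines. Deviations of arrays that share a number correlated by -0.0479 to 0.221, and those of arrays with different numbers by -0.231 to 0.141. The replicate 2 arrays gave 0.195, 0.221 and 0.144, above all values for different numbers. The labels do not say what a number marks, so the numbers were not used as pairs, and whether they mark a pairing was not tested. Signal near background limits OAS2, IFI44L, IFITM1, IFITM3 and IFI27 in the lines where they were low.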
